A study of Mus musculus with 16 samples.

Results

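The 10 genes described here, Pck1, G6pc, Fbp1, Tat, Pcx, Ppargc1a, Sds, Gpt, Gys2 and Pygl, make or control glucose output by the liver. They were chosen by symbol, each was found on 1 row of a table of 25054 gene rows, and they were followed through all 16 libraries of the series. RNA was taken from newborn C57BL/6J pups of parents heterozygous for a Man1a2 allele that lacks exon 2, where Man1a2 encodes a mannosidase that trims N-glycans. Both parents were given N-acetyl cysteine (NAC), an antioxidant that restores glutathione, at up to 1 g/kg or placebo (water) from 1 week before breeding until delivery. There were 4 pup groups, of WT and heterozygous pups that lived (live WT and live heterozygous) and of heterozygous and null pups found dead (dead heterozygous and dead null). Pups were checked every 8 h for 24 h, dead pups were harvested at death and survivors were euthanized at the end of that time. The authors state that every null pup, with NAC or placebo, died within 1 h of birth. Age at harvest therefore cannot be told apart from survival. Lung and liver RNA of 3 experiments, or 2 for dead heterozygous pups, was pooled into 1 library per pup group, treatment and tissue label, and the libraries held from 7236865 to 16107749 counts.

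A fetus receives glucose across the placenta, and birth ends this supply. The newborn liver then breaks down the glycogen it stored before birth and starts to make glucose from lactate, glycerol and amino acids, as insulin falls and glucagon, catecholamines and glucocorticoids rise. Pck1, which turns oxaloacetate into phosphoenolpyruvate, is the best known of the genes that are switched on at this time, and the glucagon signal reaches it through cyclic AMP and the coactivator encoded by Ppargc1a. The lung does not release glucose, although its cells store glycogen before birth and carry out single steps of the pathway.

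The content of a library was read from 2 marker genes, Alb of hepatocytes and Sftpc of alveolar type 2 cells. Of the 16 libraries, 8 had liver content, with at least 50000 unscaled counts per 1000000 counts (CPM) of Alb, 7 had lung content, with at least 1000 CPM of Sftpc and under 1000 of Alb, and 1 was mixed. For 8 libraries the content went against the tissue label, and the mixed one was labelled dead null placebo lung. In live pups, the libraries of liver content were those labelled placebo lung and NAC liver, and in dead heterozygous pups those labelled NAC lung and placebo liver. Both libraries of dead null NAC pups had liver content. The library labelled dead null NAC liver held 51003 CPM of Alb, just inside the threshold, and the mixed library 9280, outside it. As a result, wherever a pup group had a NAC and a placebo library of the same content, they carried opposite tissue labels. Within any such pair treatment cannot be told apart from the tissue label. The direction was not the same in all pairs. In liver content the NAC library was labelled liver in live pups and lung in dead heterozygous pups, and in lung content the reverse. Libraries are called by their content below, and levels are CPM scaled by TMM factors. Pup group and treatment were taken from the labels, and whether these were right was not tested.

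The promoters of Pck1, Ppargc1a and Tat are shown as examples. Pck1 and Ppargc1a hold the short sequence that binds the cyclic AMP response factor CREB. It is absent from the windows of Tat and of G6pc, Fbp1 and Pcx, which are not shown. Each line gives the 250 bases before the RefSeq start site, 5′ to 3′ on the strand of the gene, in GRCm38.p6, with that sequence in capitals. Pck1 lies at chr2:173152823-173153072 on the plus strand, Ppargc1a at chr5:51567726-51567975 on the minus strand and Tat at chr8:109990186-109990435 on the plus strand.
Pck1: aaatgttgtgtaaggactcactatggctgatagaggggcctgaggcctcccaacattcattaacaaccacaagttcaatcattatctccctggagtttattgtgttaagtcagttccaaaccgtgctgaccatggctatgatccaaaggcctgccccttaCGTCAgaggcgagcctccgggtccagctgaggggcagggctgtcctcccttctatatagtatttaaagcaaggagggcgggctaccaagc
Ppargc1a: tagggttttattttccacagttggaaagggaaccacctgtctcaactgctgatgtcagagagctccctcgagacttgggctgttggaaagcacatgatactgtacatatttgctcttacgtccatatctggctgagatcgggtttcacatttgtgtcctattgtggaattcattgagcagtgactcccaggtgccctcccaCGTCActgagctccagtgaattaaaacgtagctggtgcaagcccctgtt
Tat: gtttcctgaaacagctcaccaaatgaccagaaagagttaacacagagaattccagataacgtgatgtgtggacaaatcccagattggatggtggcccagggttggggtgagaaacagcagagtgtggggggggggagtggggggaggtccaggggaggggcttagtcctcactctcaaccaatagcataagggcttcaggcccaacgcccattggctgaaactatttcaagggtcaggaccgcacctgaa
The motif searched was the CREB core site, TGACG or CGTCA on the other strand. It began 90 bases before the start of Pck1, 49 bases before that of Ppargc1a and 44 bases before that of Pygl. Promoter sequences were found for 7 of the 10 genes, and Sds, Gpt and Gys2 were not matched. Among 32536 promoter windows of the same length, 17.9% held the core site. The letters AGAACA of the glucocorticoid receptor core site (16% of windows) and GTAAACA of the forkhead site (3.17% of windows) occurred in none of the windows of these 7 genes, which says only that those letters are not within 250 bases.

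By GENCODE on GRCm38, the genes of the central pathway are Pcx (chr19:4510472-4621752, plus strand), Pck1 (chr2:173153048-173159273, plus), Fbp1 (chr13:62864753-62888282, minus) and G6pc (chr11:101367561-101377903, plus). Those of amino acid use are Tat (chr8:109990437-109999803, plus), Sds (chr5:120476526-120483932, plus) and Gpt (chr15:76695716-76699686, plus). Those of glycogen are Gys2 (chr6:142422613-142473109, minus) and Pygl (chr12:70190811-70231488, minus), and the coactivator gene Ppargc1a lies at chr5:51454250-51567726 on the minus strand.

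All 10 genes were detected in every library of liver content, and they fell into a group that was nearly confined to liver content and a group that was not. Pck1, G6pc, Fbp1, Tat, Sds and Gys2 were at 1.91 CPM or less in lung content with the exceptions of Pck1 and Tat, which reached 3.48 and 4.71 CPM. Pcx, Pygl, Gpt and Ppargc1a were well measured in both contents. Since content was set by markers, these differences are a description without a test, and in pooled tissue fewer cells of a type and less RNA per cell cannot be told apart.

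Pck1, the rate-limiting step of the pathway, ranged from 863 to 2724 CPM in liver content with a median of 1286, and from 0.106 to 3.48 CPM in lung content with a median of 2.52. G6pc, the catalytic subunit of glucose-6-phosphatase, which frees glucose at the last step, ranged from 206 to 1318 CPM with a median of 369 in liver content. Fbp1, which removes a phosphate from fructose-1,6-bisphosphate, kept to 697 to 1369 CPM there. In lung content G6pc was listed at 0 in 2 libraries and reached at most 8 counts, and Fbp1 lay between 4 and 22 counts. A count of 0 allows up to 3 counts, which are worth 0.159 to 0.418 CPM in these libraries.

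Tat and Sds, which turn amino acids into substrates of the pathway, varied most of the 10 genes in liver content. Tat, tyrosine aminotransferase, spanned 180 to 2718 CPM in liver content, a 15.1-fold range, and Sds, serine dehydratase, 12.6 to 372 CPM, a 29.4-fold range. Pcx, pyruvate carboxylase, spanned only 656 to 1011 CPM, a 1.54-fold range. The enzyme at the entry of the pathway was thus the most even of the 10 genes over these 8 libraries. The exons of Sds overlap those of Gm15690 and Plbd2 on the other strand, and whether reads were counted by strand is not given in the sources used here.

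Gys2, the liver glycogen synthase, was at 102 to 266 CPM in liver content, with no more than 4 counts in any library of lung content. Pygl, the liver form of glycogen phosphorylase, was at 205 to 365 CPM in liver content and still at 40.9 to 93.2 CPM in lung content. Gpt, alanine aminotransferase, and Ppargc1a were the genes whose levels overlapped between contents. Gpt had 3.70 to 20.6 CPM in liver content against 3.62 to 7.36 in lung content, and Ppargc1a 14.8 to 52.7 CPM against 5.29 to 34.2.

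**Figure D1:**
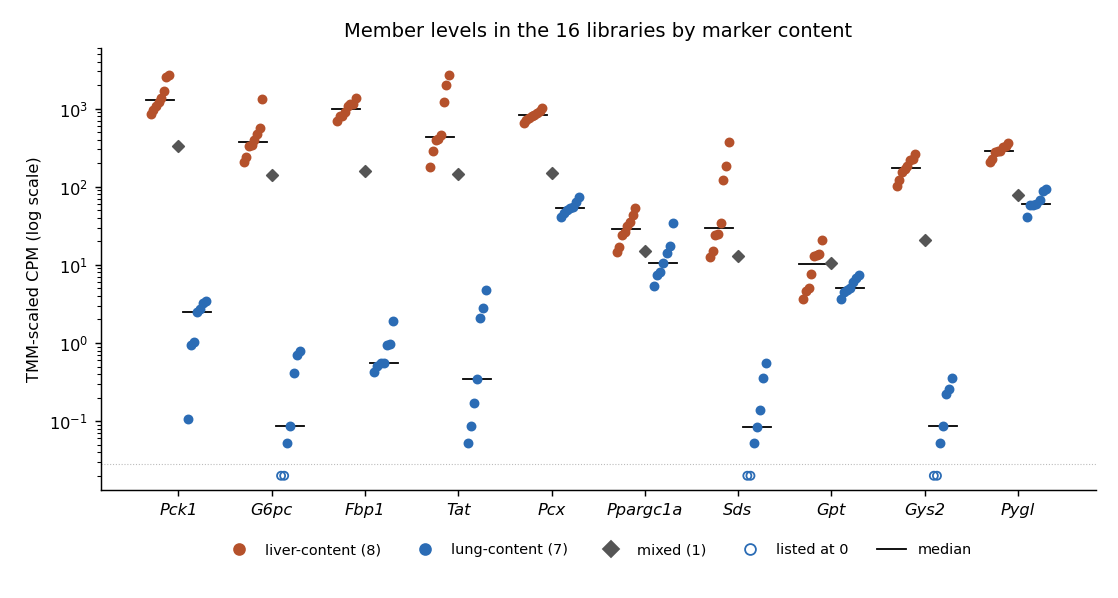
Level of each of the 10 genes (TMM-scaled CPM, log axis) in each library, by marker content; bars are medians and open points are libraries in which the gene was listed at 0. The 6 genes nearly confined to liver content lie at 12.6 CPM or more there and at 4.71 CPM or less in lung content, while Pcx, Pygl, Ppargc1a and Gpt are measured in both.

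Counts of each gene were also set against those of Alb in the same library. In liver content there were 6.82 to 22.8 Pck1 counts per 1000 Alb counts, and in lung content a median of 32 and up to 120, with 6 of 7 libraries above the highest of liver content. Sds lay above it in 4 of 7 libraries of lung content, Tat, Fbp1 and Gys2 in 3 of 7 and G6pc in 2 of 7. For Pcx (399 to 5837 in lung content against 5.70 to 15.5), Ppargc1a, Gpt and Pygl all 7 libraries lay above it. In lung content the ratios of Pck1 and G6pc rest on few counts, 2 to 31 and 0 to 8. The same holds for Sds (0 to 5), Gys2 (0 to 4), Fbp1 (4 to 22) and Tat (1 to 53). The highest Pck1 ratio came from 11 Pck1 and 92 Alb counts in the dead heterozygous placebo library. The hepatocyte markers summed to between 24.9 and 236 CPM in lung content and to between 160667 and 259012 CPM in liver content. In the mixed library, Pck1 was at 331 CPM, 25.7% of the median of liver content, and the members ranged from 11.9% for Gys2 to 102% for Gpt.

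Each enzyme was next set against the form of it that other tissues use, per kilobase of exon. The length was that of all annotated exons of a gene together, and the shares depend on it. In liver content Pck1 made up a median of 99% of the cytosolic and mitochondrial (Pck2) forms, G6pc 96.7% of itself and the ubiquitous G6pc3, Fbp1 99.9% of itself and the muscle form Fbp2, and Gys2 95.3% of itself and the muscle form Gys1. In lung content the medians were 16.2% for Pck1, 0.669% for G6pc and 0.557% for Gys2, so for these 3 the other form was the main one, whereas Fbp1 had a median of 50.9% and a range from 38.6% to 95%, on few counts of both forms. The ranges of Pck1, G6pc and Gys2 shares did not overlap between contents. Pck2 itself overlapped between contents, with 25.9 to 60 CPM in liver content and 20.2 to 29.7 CPM in lung content.

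Glycogen phosphorylase was shared more evenly. Pygl made up 72.5% to 83.6% of itself and the brain form Pygb in liver content and 36.7% to 59.8% in lung content. Not divided by exon length, Pygl had the higher median in lung content, at 59.7 against 49.9 CPM. Gpt went the other way, with a median share of 27.4% against mitochondrial Gpt2 in liver content and 55.3% in lung content, and these ranges overlapped. The share of Sds against the related Sdsl ranged from 44.5% to 93.7% in liver content. For the opposing glycolytic step, Pklr, the liver pyruvate kinase, made up 38.3% to 58.2% of itself and Pkm in liver content and at most 0.655% in lung content.

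**Figure D2:**
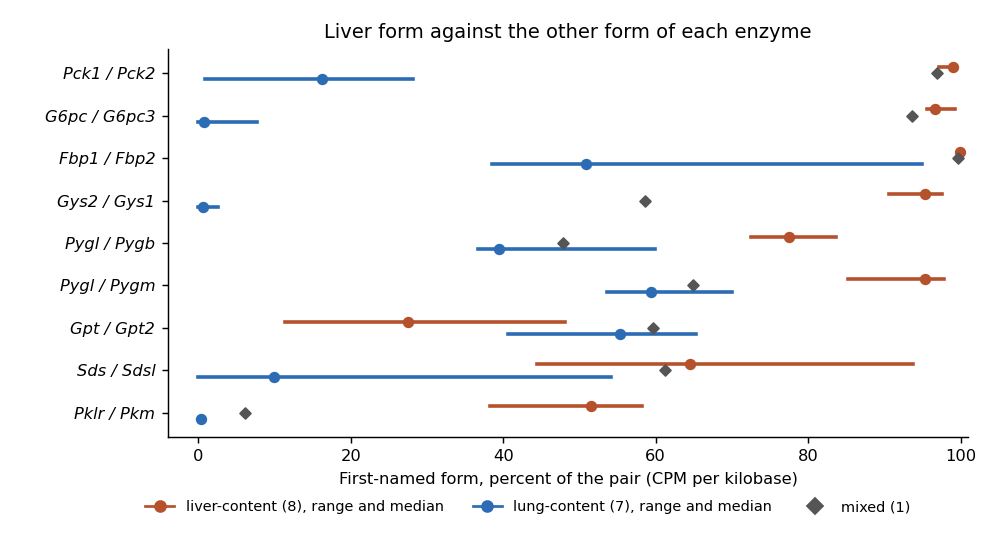
Share of the first-named form in each pair of enzymes, in percent of the pair by CPM per kilobase of exon; lines are ranges, points medians and diamonds the mixed library. Pck1, G6pc, Fbp1 and Gys2 exceed 90% in all 8 libraries of liver content, and the Gpt ranges overlap between contents.

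Whether pups that died differed from survivors was asked first in liver content, with 3 dead columns (dead heterozygous placebo, dead heterozygous NAC and dead null NAC) against 4 live ones, a column being 1 pup group and treatment. The 2 dead null NAC libraries were summed into 1 column, although they were far apart. Tat was at 1988 CPM in the one labelled lung and 395 in the one labelled liver, Sds at 121 and 33.9, and Gpt at 4.66 and 20.6. In the same order, erythroid markers summed to 9422 and 2702 CPM, striated muscle markers to 556 and 9.86 CPM and intestine markers to 13.5 and 77 CPM. Overlap between dead and live pups is therefore given over single libraries, and the p-values measure only the spread between these pools. Live and dead groups differ in genotype as well, as WT pups are only among the live and null pups only among the dead.

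Sds had the largest log2FC of the 10 genes. It was at 25.2 CPM in live WT placebo, 15.3 in live WT NAC, 12.6 in live heterozygous placebo and 23.9 in live heterozygous NAC pups. In dead pups it was at 372 CPM in heterozygous placebo, 186 in heterozygous NAC and 121 and 33.9 in the null NAC libraries. All 4 dead libraries lay above the 4 live ones, which held for 1.43% of the 13274 genes tested when libraries were kept single (2.55% did not overlap in either direction). The log2FC (dead minus live) was 3.39 (SE 0.48), but the adjusted p of edgeR's quasi-likelihood test was 0.12.

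Tat was at 404, 465, 180 and 288 CPM in the same order of live libraries. Among the dead it was at 2718, 1228, 1988 and 395 CPM, so that 3 of 4 dead libraries exceeded every live one and the library labelled dead null NAC liver lay within their range. The log2FC was 2.30 (SE 0.42, adjusted p = 0.22, edgeR). G6pc showed the same arrangement at a smaller size, with 206 to 394 CPM in live pups and 1318, 572, 471 and 344 in dead pups, and a log2FC of 1.42 (SE 0.23, adjusted p = 0.18, edgeR).

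Ppargc1a was at 14.8 to 26.2 CPM in live pups and at 52.7, 35.4, 43.9 and 31 CPM in dead pups, again without overlap between single libraries. Its log2FC was 1.04 (SE 0.24, adjusted p = 0.36, edgeR). Pck1 overlapped, with 863 to 1660 CPM in live and 1094 to 2724 CPM in dead pups (log2FC 0.77, SE 0.25, adjusted p = 0.43, edgeR). The remaining 5 genes had lower means in dead pups with overlapping libraries, and their log2FC ranged from −0.47 for Gys2 and −0.42 for Fbp1 to −0.19 for Pcx.

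None of the 10 genes passed edgeR's test, 5 of them had an unadjusted p under 0.05, and of all 13274 genes only 2 (0.0151%) did, Rab30 and Upp2, named here because the count is small, while 1430 had an unadjusted p under 0.05. With the dead null NAC libraries summed, the columns of Sds, Tat, G6pc and Ppargc1a did not overlap, 4 of 10 genes against 10.7% of all genes tested. The median log2FC of the 10 genes was 0.29, against 0.000185 over all genes tested. DESeq2 called 118 genes, among them Sds (adjusted p = 4.8e-11), Tat (5.1e-06), G6pc (8.8e-06) and Ppargc1a (0.036). Without the live WT NAC column edgeR called 40 genes, and Sds, Tat, G6pc and Ppargc1a had adjusted p values of 0.057 to 0.088. Without the dead heterozygous placebo column it called none, the adjusted p of all 4 was 0.999, and the log2FC were 2.72 for Sds, 1.63 for Tat, 1.11 for G6pc and 0.81 for Ppargc1a. Of the cell type markers, 4 of 8 of macrophages had an unadjusted p under 0.05, with a median log2FC of −0.71. These summed to 630 to 835 CPM in live and 356 to 744 CPM in dead pups. Such a p was also found for 2 of 6 lung, 1 of 11 hepatocyte and 1 of 3 adipose markers, and DESeq2 called 1 adipose marker. The median log2FC was 1.98 for adipose markers and 2.70 for 5 pancreas markers, of which 0 had such a p. The part of these cell types in the differences was not tested.

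**Figure D3:**
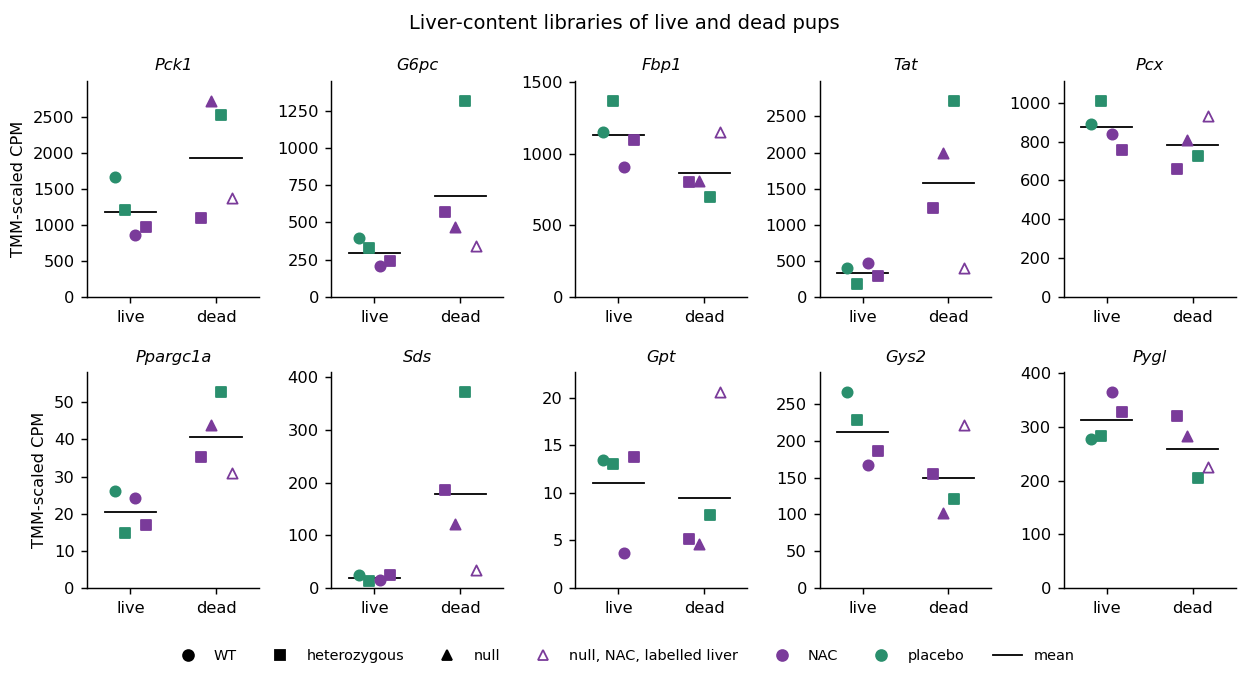
Levels of the 10 genes (TMM-scaled CPM, linear axes from 0) in the 8 libraries of liver content, by survival, with genotype as symbol and treatment as colour; bars are means over 4 libraries and the open triangle is the dead null NAC library labelled liver. Sds and Ppargc1a are higher in every dead library than in every live one, whereas for Tat and G6pc the open triangle lies among the live libraries.

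Heterozygous pups are the one genotype found both live and dead. Restricted to them, with 2 dead and 2 live libraries, each group holding 1 library of each treatment and of each tissue label, 5 of the 10 genes passed. Sds rose (log2FC 3.90, SE 0.33, adjusted p = 1.7e-28, edgeR), as did Tat (3.00, SE 0.37, adjusted p = 1.8e-13, edgeR), G6pc (1.62, SE 0.33, adjusted p = 3.3e-05, edgeR) and Ppargc1a (1.44, SE 0.27, adjusted p = 6.4e-06, edgeR). Gpt fell by 1.09 on the log2 scale (SE 0.33, adjusted p = 0.0096, edgeR), from 13 and 13.8 CPM to 7.64 and 5.11. Pck1 (0.62, SE 0.35, adjusted p = 0.24, edgeR), Fbp1, Pcx, Gys2 and Pygl did not pass.

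In this restricted fit 15% of 13228 genes passed, 978 higher and 1004 lower, and it had 1 residual degree of freedom, so that the error rests mostly on what edgeR shares between genes. Other markers moved with survival in these 4 libraries. The 8 striated muscle markers summed to 234 and 89.6 CPM in dead NAC and placebo and to 7.44 and 30.3 CPM in live NAC and placebo pups, and 5 of 6 tested were called higher. Pancreas markers summed to 321 and 12 against 43.2 and 14 CPM, with 5 of 7 tested higher. Erythroid markers summed to 13131 and 12138 against 9025 and 2515 CPM, with 6 of 8 tested higher, and macrophage markers to 453 and 356 against 630 and 784 CPM, with 4 of 8 lower. Of the hepatocyte markers 1 of 11 was called, lower. Adipose markers summed to 99.1 and 111 against 49.3 and 58.6 CPM, with 2 of 3 tested higher, and kidney markers to 20.9 and 23 against 12.2 and 8.69 CPM, with the 1 tested higher. Intestine markers summed to 11.9 and 7.0 against 34.5 and 79.9 CPM, with 1 of 2 tested lower, and 1 of 6 lung markers was called higher. In all 8 libraries of liver content the kidney markers Slc34a1, Slc22a6, Umod and Slc22a12 and the adipose markers Ucp1, Plin1, Lep and Elovl3 had at most 3 counts. The kidney and adipose sums and calls above therefore rest mostly on the other genes of each list. The part of these cell types in the changes was not tested.

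**Figure D4:**
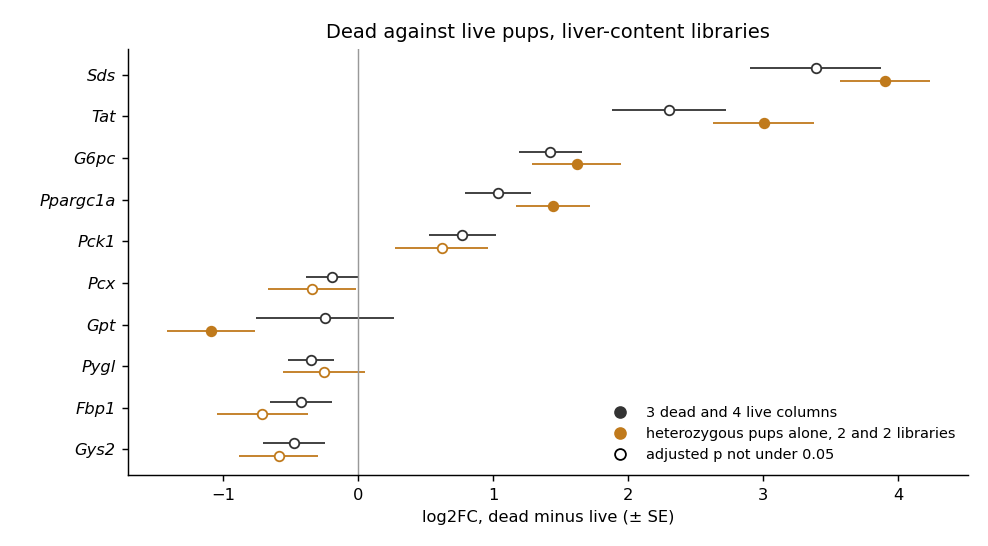
log2FC of dead minus live pups in liver content (bars, SE of edgeR's quasi-likelihood fit) over all columns and in heterozygous pups alone; filled points passed an adjusted p under 0.05. Sds, Tat, G6pc and Ppargc1a pass in heterozygous pups alone, with 3.90, 3.00, 1.62 and 1.44, and no gene passes over all columns.

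The wider pathway was read from 4 lists. In the comparison of all dead and live columns of liver content, 0 of 22 tested genes of gluconeogenic and glycolytic steps, 0 of 20 of glycogen metabolism, 0 of 17 of amino acid supply and 0 of 24 of hormone and transcription control passed edgeR's test. At an unadjusted p under 0.05 the counts were 4, 5, 5 and 6, and DESeq2 called 1 in each list. Those with the smallest adjusted p are given by value. Got1, the cytosolic aspartate aminotransferase, which carries oxaloacetate carbon to the cytosol, was at 132 to 273 CPM in live pups and at 2821, 827, 1392 and 321 CPM in dead heterozygous placebo, dead heterozygous NAC and the 2 dead null NAC libraries, labelled lung and liver (log2FC 2.79, SE 0.41, adjusted p = 0.12, edgeR). Ppp1r3g, a glycogen-targeting subunit of protein phosphatase 1, was at 6.96 to 20 CPM in live pups and at 84.7, 50.7, 51.9 and 15.7 CPM in dead pups (log2FC 2.10, SE 0.44, adjusted p = 0.32, edgeR). Got1 thus did not overlap between single libraries, whereas the dead null NAC library labelled liver lay among the live ones for Ppp1r3g.

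Of the 12 genes taken from these lists by the smallest adjusted p, 10 overlapped between single libraries, and Got1 and Phka2 did not. Slc7a2, a carrier of cationic amino acids, was at 132 to 279 CPM in live pups and at 891, 294, 916 and 173 CPM in dead pups (log2FC 1.46, SE 0.39). Slc38a2, a carrier of neutral amino acids, was at 102 to 136 CPM in live pups and at 277, 151, 279 and 109 CPM in dead pups (0.77, SE 0.22). In both the lowest dead library was the dead null NAC one labelled liver, which lay within the live range. The same held for Slc37a4, which moves glucose-6-phosphate to G6pc in the endoplasmic reticulum, with 126 CPM there against 110 to 145 in live pups and 149 to 252 in the other dead libraries (0.58, SE 0.19). It held for mitochondrial Gpt2, with 42.6 CPM against 38.9 to 42.8 in live pups and 49.9 to 74.6 in the others (0.56, SE 0.16).

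In the control list, Pdk4, which spares pyruvate for glucose synthesis, was at 65.8 CPM in that library, at 41.8 to 85.7 CPM in live pups and at 85.9 to 186 CPM in the other dead libraries (0.95, SE 0.32). The fasting-induced factor Klf15 (0.89, SE 0.29) and Ppargc1b, the relative of Ppargc1a (1.66, SE 0.43), each had 2 of 4 dead libraries within the live range, with 53.6 to 100 CPM and 3.03 to 7.87 CPM in live pups and 82.8 to 185 CPM and 3.97 to 30.8 CPM in dead pups. Sdsl also had 2 of 4 within it (0.58, SE 0.15). Pygb (−0.61, SE 0.14) and the phosphorylase kinase subunit Phka2 (−0.46, SE 0.16) had lower values in dead pups, at 36.8 to 59.8 against 57.3 to 73.9 CPM and at 22.4 to 33.2 against 35.9 to 39.1 CPM. The adjusted p of these genes lay between 0.35 and 0.43 with edgeR.

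In heterozygous pups alone the counts were 3 higher and 1 lower of 22 for the gluconeogenic and glycolytic steps, 3 higher of 20 for glycogen metabolism, and 2 higher and 5 lower of 17 for amino acid supply. For hormone and transcription control 12 of 24 were higher and 1 lower, with a median log2FC of 0.78. These counts stand beside 15% of all genes called in either direction.

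The same question in lung content, with 3 dead and 4 live libraries, gave no call among 13659 genes (0%) with edgeR, where 490 genes had an unadjusted p under 0.05 and DESeq2 called 20. Only 6 of the 10 genes reached a mean of 1 CPM there, without G6pc, Fbp1, Sds and Gys2, and 2 of the 6 had an unadjusted p under 0.05 and none was called by DESeq2. Ppargc1a was at 14.0, 17.3, 7.42 and 5.29 CPM in live WT NAC, live heterozygous NAC, live WT placebo and live heterozygous placebo libraries. It was at 34.2, 8.14 and 10.7 CPM in dead heterozygous NAC, dead heterozygous placebo and dead null placebo libraries, a log2FC of 0.81 (SE 0.21, adjusted p = 0.999, edgeR). The 3 highest libraries were all of NAC pups. Pygl had a log2FC of 0.48 (SE 0.21) and Pcx of 0.34 (SE 0.16), with the same adjusted p. All 7 erythroid markers tested had an unadjusted p under 0.05 in this comparison and DESeq2 called 4 of them. Of 10 hepatocyte markers tested 1 had such a p, and their median log2FC was −1.12. These markers summed to 24.9 to 236 CPM in live and 41.4 to 104 CPM in dead pups. In heterozygous pups alone edgeR called 4 of the 10 lower (median −2.43), where 7 of 13677 genes were called. An unadjusted p under 0.05 was also found for 1 of 12 lung, 1 of 1 adipose, 1 of 6 striated muscle and 1 of 2 pancreas markers. The part of these cell types was not tested.

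A term for the difference of the dead against live change between contents passed for 2 of 14094 genes (0.0142%), Rab30 and Setdb2, and for none of the 10, of which 1 had an unadjusted p under 0.05 (edgeR). The values furthest from 0 were −2.80 (SE 1.80) for Sds and −2.41 (SE 1.44) for Tat, lung content minus liver content, which rest on few counts in lung content. The smallest adjusted p of the 10 genes was 0.62, for Pygl, at 0.83 (SE 0.29, edgeR). The data therefore do not show that the change with survival differed between contents, nor that it was the same.

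NAC was then compared with placebo within pup groups and content. In lung content Ppargc1a, the coactivator, was higher with NAC in each of the 3 pup groups that had both libraries. It was 1.89-fold higher in live WT pups (14.0 against 7.42 CPM), 3.26-fold in live heterozygous pups (17.3 against 5.29 CPM) and 4.2-fold in dead heterozygous pups (34.2 against 8.14 CPM). The dead null placebo library, which has no NAC partner of lung content, was at 10.7 CPM, so that every NAC library exceeded every placebo library. The log2FC was 1.56 (SE 0.25, adjusted p = 0.0046, edgeR with pup group as a term), and the adjusted p stayed between 0.0023 and 0.019 when each library was left out in turn.

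That call stands in a comparison in which 26.4% of 13659 genes passed, 14.4% higher with NAC, and in which columns did not overlap for 29.8% of genes. Tat was the other gene of the 10 that passed, with a log2FC of 4.55 (SE 0.84, adjusted p = 0.0073, edgeR). Its mean was 2.61 CPM with NAC and 0.606 CPM with placebo, so that it met the filter of a mean of 1 CPM only through the NAC libraries, the group in which it is high, and its call is given as a description. It rested on 53, 20 and 4 counts in the NAC libraries of live WT, live heterozygous and dead heterozygous pups against 1, 1 and 2 counts with placebo, while the dead null placebo library had 19 counts. The ratio was 88.9 in live WT pups (95% interval 15.3 to 3576, exact, counting error only), 32.1 (5.14 to 1331) in live heterozygous pups and 2.03 (0.291 to 22.5) in dead heterozygous pups. The highest of these levels, 4.71 CPM, was far below the 180 CPM of the lowest library of liver content. Without the live WT placebo library the adjusted p was 0.064, and with survival in place of pup group 0.22 (log2FC 2.49), both with edgeR. Per 1000 Alb counts the live WT NAC library held 74.3 Tat counts, above the 22.2 that was the highest of liver content.

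Gpt was lower with NAC in all 3 pairs, at 4.53, 3.62 and 4.74 CPM against 7.36, 5.12 and 6.78 CPM with placebo, and the columns did not overlap (log2FC −0.58, SE 0.25, adjusted p = 0.12, edgeR). Pcx was higher in all 3 pairs, by 1.05-fold, 1.36-fold and 1.61-fold (log2FC 0.40, SE 0.16, adjusted p = 0.103, edgeR). Pck1 and Pygl did not pass either, with log2FC of 1.35 (SE 0.71) and −0.04 (SE 0.21).

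Among the hormone and transcription control genes 14 of 22 tested were higher with NAC in lung content. The 1 that was lower was Creb1, the gene of CREB (log2FC −0.51, SE 0.14, adjusted p = 0.030, edgeR). The following were named after their values were seen. Per1 and Klf15, known targets of the glucocorticoid receptor, had log2FC of 3.02 (SE 0.29) and 2.78 (SE 0.29). Sik1, a kinase that cyclic AMP induces, had 2.43 (SE 0.20), Nr4a1, an early response receptor, 2.35 (SE 0.21), Lpin1, a fasting-induced phosphatidate phosphatase, 2.95 (SE 0.23), and Irs2, the insulin receptor substrate, 1.99 (SE 0.15). Their adjusted p were 8.8e-04 or lower (edgeR). Klf15 was at 160, 139 and 84.1 CPM in NAC libraries and at 17, 14.1, 24.4 and 86.4 CPM in placebo libraries, the last being dead null, so that its groups overlapped. In that dead null library Per1 was at 243, Sik1 at 270 and Lpin1 at 79.8 CPM. The other placebo libraries had 35 to 57.1, 60.7 to 95 and 11.4 to 18.4 CPM, and the lowest NAC library 261, 330 and 109 CPM. With no NAC partner, the dead null library adds nothing to these log2FC. Of the other lists, 3 were higher and 1 lower of 19 tested for the gluconeogenic and glycolytic steps, 2 higher and 3 lower of 19 for glycogen metabolism, and 4 higher of 9 for amino acid supply. With 26.4% of all genes called, the counts for the gluconeogenic and glycolytic steps and for glycogen metabolism lie near the background.

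Markers of other cells moved with NAC in lung content as well. Of 10 hepatocyte markers tested 2 were called higher, and they summed to 130, 225 and 61.5 CPM in NAC and to 24.9, 236, 41.4 and 104 CPM in placebo libraries. Of the erythroid markers 4 of 7 tested were higher, with sums of 1514, 1759 and 2741 CPM in NAC and 1251, 1539, 3090 and 2176 CPM in placebo libraries. Of the kidney markers 2 of 3 tested were lower, with sums of 14.7, 15.7 and 24.9 against 29.5 to 37.5 CPM. The 1 adipose marker tested was higher, and that list summed to 19.7, 20.1 and 26.4 against 6.16 to 17.6 CPM. The 1 intestine marker tested was higher, 1 of 2 pancreas markers was higher and 1 lower, 1 of 12 lung markers was higher and 1 lower, 1 of 5 macrophage markers was lower, and 0 of 6 striated muscle markers passed (3 at an unadjusted p under 0.05, 1 with DESeq2). Their part in these changes was not tested.

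**Figure D5:**
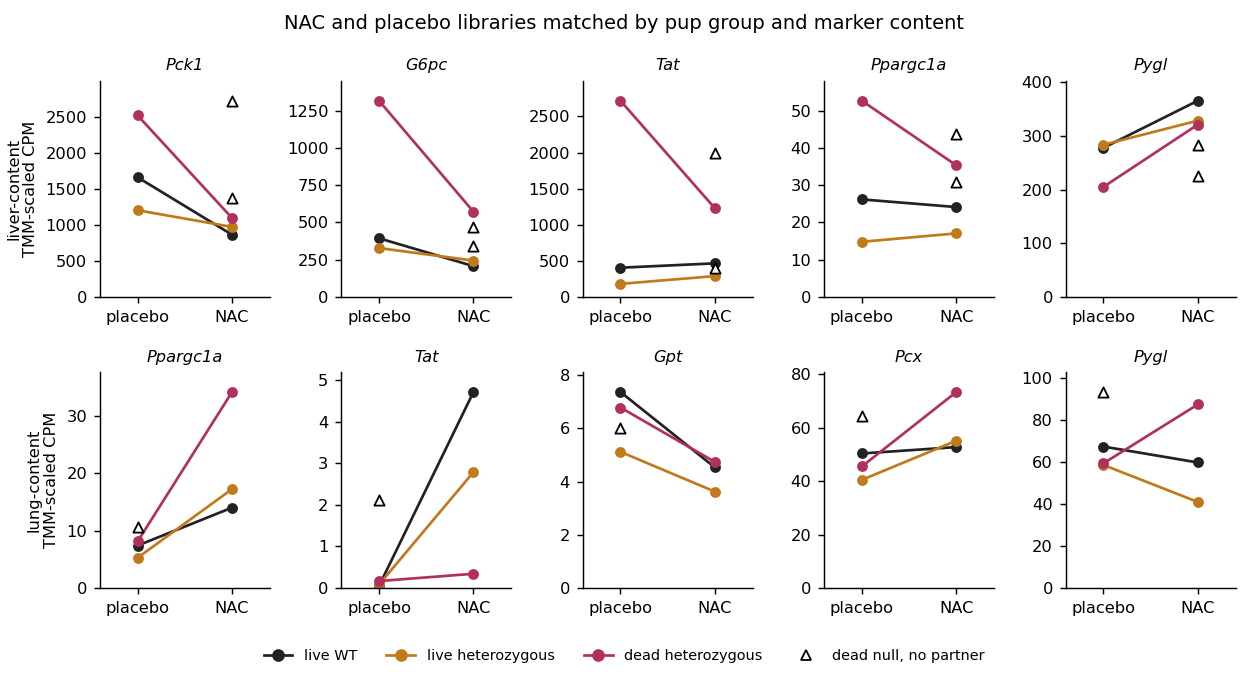
Levels (TMM-scaled CPM, linear axes from 0) in placebo and NAC libraries of the same pup group and content, joined by lines, for 5 genes in liver content (top) and 5 in lung content (bottom); open triangles are dead null libraries without a partner. Ppargc1a rises in all 3 pairs of lung content, and Pck1 and G6pc are lower with NAC in all 3 pairs of liver content without passing the test.

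In liver content none of the 10 genes passed between NAC and placebo with edgeR, 2 had an unadjusted p under 0.05, and 4 of 13274 genes passed (0.0301%). G6pc was lower with NAC in all 3 pairs, at 206, 244 and 572 CPM against 394, 328 and 1318 CPM in live WT, live heterozygous and dead heterozygous pups (log2FC −0.86, SE 0.22, adjusted p = 0.29, edgeR). Pck1 was lower in all 3 as well, at 863, 971 and 1094 CPM against 1660, 1203 and 2520 CPM (log2FC −0.82, SE 0.24, adjusted p = 0.32, edgeR). DESeq2 called both, with adjusted p of 0.018 for G6pc and 0.034 for Pck1, among 214 genes. Erythroid markers moved with treatment in these libraries. They summed to 15428, 9025 and 13131 CPM with NAC against 5951, 2515 and 12138 CPM with placebo in the same order of pairs, and none of 8 was called by edgeR, while all 8 had an unadjusted p under 0.05 and DESeq2 called 6, with a median log2FC of 1.11. Striated muscle markers summed to 542, 7.44 and 234 CPM with NAC against 7.70, 30.3 and 89.6 CPM with placebo. Of 6 tested 2 had an unadjusted p under 0.05 and DESeq2 called 1, with a median log2FC of 1.67. Such a p was found for 3 of 5 pancreas markers, with a median log2FC of 4.91. It was also found for 1 of 3 adipose, 1 of 2 intestine and 1 of 6 lung markers. The part of these cell types in the lower Pck1 and G6pc values was not tested.

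Pygl was higher with NAC in all 3 pairs, by 1.32-fold, 1.16-fold and 1.57-fold (log2FC 0.42, SE 0.18, adjusted p = 0.44, edgeR). Tat and Sds were lower with NAC in dead heterozygous pups, at 1228 against 2718 and 186 against 372 CPM, whereas Tat was higher with NAC in both live pairs, at 465 against 404 and 288 against 180 CPM, and the live pairs of Sds went opposite ways, by 0.606-fold and 1.89-fold. The median log2FC of the 10 genes was −0.21, against −0.02 over all genes tested. Hspa1a, Cela3b and Ctrb1 were among the genes called, named here because the count is small, and no gene was called with relative log expression factors in place of TMM. No gene was called of glycogen metabolism (7 of 20 at an unadjusted p under 0.05, 2 with DESeq2), amino acid supply (5 of 17, 0 with DESeq2) or hormone and transcription control (1 of 24, 1 with DESeq2).

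Cela3b and Ctrb1 are pancreatic protease genes, and the pancreas markers summed to 321 CPM in the dead heterozygous NAC library and to 43.2 CPM or less in the other 7 libraries.

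By tissue label, each NAC library was compared with the placebo library of its pup group at an absolute log2 ratio of at least 1, with 1 library a side and no test. Under the label lung, 10 of the 10 genes passed this fold in dead null pups (46.9% of all genes), 9 in dead heterozygous (51.1%), 9 in live heterozygous (60.5%) and 9 in live WT pups (55.8%). Under the label liver 10 passed in dead null (55.8% of all genes), 8 in dead heterozygous (51.8%), 10 in live heterozygous (50%) and 9 in live WT pups (49.6%). No pair had the same content on both sides, and in 76 of 80 values the library with more hepatocyte content was the higher. The exceptions were Gpt in the dead null pair labelled lung (log2 ratio −1.17), the live WT pair labelled liver (−0.99) and the dead heterozygous pair labelled lung (−0.41), and Ppargc1a in the live heterozygous pair labelled lung (0.22). In the lung-labelled pair of live WT pups, for example, placebo had liver content and the median log2 ratio of the 10 genes was −6.26, whereas in the liver-labelled pair NAC had liver content and it was 9.49.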

How the data were processed

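RNA sequencing libraries of newborn lung and liver were prepared with a stranded mRNA kit, and the authors deposited estimated counts per gene symbol, not normalized, from reads aligned to GRCm38. The submitters' processing notes name R 4.0.3 and edgeR 3.30.3. In each library up to 8.24% of entries were fractional, and all were rounded to integers. Libraries held 7236865 to 16107749 counts. The ribosomal symbol Rn45s took 0.845% to 6.29% of them in liver content and 4.05% to 26.2% in lung content. With NAC against placebo in lung content it took 9.69% against 4.05% in live WT and 26.2% against 19.7% in live heterozygous pups. In dead heterozygous pups it took 8.16% against 15.9%. The authors give a lower average RNA quality number for lungs of dead pups than over all samples, and call it good. A single count was worth 0.053 to 0.139 CPM, and intervals cover counting error only.

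TMM factors over 16 libraries, a filter of a mean of 1 CPM, and edgeR 4.0.16 (R 4.3.3, quasi-likelihood, Benjamini-Hochberg over all genes tested, called at an adjusted p under 0.05) gave the tests, with treatment as a term for survival and pup group as a term for NAC. DESeq2 1.42.0, other scalings, filters and terms, and leaving out each column were alternatives. The 2 dead null NAC libraries were summed, and using either alone was added after seeing the data. The survival fits were also run on simulated counts. Every gene there had the same spread between columns (dispersion), lower than the common 0.0725 of liver content and 0.0446 of lung content. That run therefore does not show how many changes were missed in the data. Exon lengths came from GENCODE and promoters from RefSeq. The mixed library entered no fit.

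The members and the gene lists were chosen with earlier results of these data known. All 10 members are given in each comparison. From the lists, counts and, in the dead against live comparison of liver content, the 3 genes with the smallest adjusted p are given. In the comparison of NAC with placebo in liver content, 1 of the genes called and 1 list count are not reported here.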

Additional observations from a re-analysis of the deposited data

Results flagged for a closer look

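Gpt in the live WT NAC library of liver content was at 3.70 CPM, against 13 to 13.8 CPM in the other 3 live libraries of that content, and the gap was 0.959 of the whole range on the log2 scale. Pck1 in the live WT placebo library of lung content was at 0.106 CPM, which is 2 counts, against 2.52 to 3.48 CPM in the other 3 live libraries, a gap of 0.907 of the range. Over the 28 groups of 4 libraries looked at in this way 2 stood apart, and chance sets apart about 1 in 20.

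Pck1 was lower with NAC in all 3 pairs of liver content and, in scaled CPM, higher in all 3 pairs of lung content. The difference between the mean log2 ratios was 2.59 (lung content minus liver content). In lung content NAC and placebo libraries held 31 and 2 counts in live WT pups. They held 25 and 29 counts in live heterozygous and 12 and 11 in dead heterozygous pups, and in these pairs the 95% intervals of the levels overlapped. The difference in Pck1 rests in part on the live WT placebo library of lung content with its 2 counts, and without the live WT pairs it was 1.06. Pcx went the same way, with a difference of 0.616, and 0.848 without the live WT pairs. Neither difference was tested.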

How the results depend on the processing

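Over the alternatives, 537 values of single genes kept their direction and their side of the threshold, 25 changed sign, 13 passed only under the alternative and 2 no longer passed. The count of genes called between dead and live pups in liver content, 2, became 0 with TMM over the fitted columns, 15 without a filter, 118 with DESeq2, 0 with the dead null NAC libraries separate, 0 without a treatment term, 1982 in heterozygous pups alone, and 0 to 40 with 1 column left out. With dead null NAC taken from the library labelled liver alone it was 0, and from the one labelled lung alone 10, with Sds called (3.53). In lung content the count of 0 became 1 without a filter, 20 with DESeq2 and 7 in heterozygous pups alone. The 4 genes called between NAC and placebo in liver content became 0 with relative log expression factors, 14 without a filter, 0 above a mean of 10 CPM, 214 with DESeq2, 0 with libraries separate, 0 with survival as the term, and 0 to 144 with 1 column left out. In lung content the 3601 became 1383 with a fold of at least 1 on the log2 scale, 1897 with survival as the term and 1040 to 4182 with 1 column left out. The causes were not tested, beyond that smaller fits hold fewer columns.

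Signs that changed were of values near 0 or of few counts. With 1 column left out, the dead against live log2FC ranged from −0.79 to 0.23 for Gpt in liver content and, in lung content, from −0.99 to 0.75 for Pck1, from −2.52 to 3.82 for Tat and from −0.0086 to 0.27 for Gpt. Between NAC and placebo it ranged from −0.49 to 0.030 for Gys2, from −0.47 to 0.44 for Tat, from −0.35 to 0.039 for Ppargc1a and from −0.87 to 0.098 for Sds in liver content and from −0.34 to 0.19 for Pygl in lung content. Gpt was at 0.046 (dead against live) with dead null NAC by the library labelled liver, Tat at −1.13 in lung content without a treatment term, and Fbp1 at 0.23 in the difference between contents with pup group and treatment as a block. The depth, the summing of the dead null NAC libraries and the few counts of 6 genes in lung content limit what could be detected.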
